A study of Mus musculus with 12 samples.

Results

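Messenger RNA of 9 genes of oligodendrocytes and their myelin was compared between heat stress and control in the brain of aged mice. The genes Mbp, Mog, Mag, Mobp, Cnp, Mal, Olig1, Olig2 and Pdgfra were taken by symbol from a count table of 25239 genes, and all 9 were found. Every mouse was a male wild type C57BL/6J animal aged 24 months, and no group carried a transgene or an engineered allele. The heat stress mice were kept at 40 ± 0.5 °C and 60 ± 5% relative humidity for 3 h a day over 15 days, and the control mice had no such exposure named in the labels. For each tissue, 3 mice per group were sequenced, and the 12 libraries were stranded and made from oligo-dT selected messenger RNA. The brain region that was homogenized is not named in the labels or methods. The total count per library was between 10552686 and 14597197 in brain and between 10466198 and 15609040 in liver.

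Oligodendrocytes wrap the axons of the central nervous system in myelin, a stack of lipid-rich membrane that speeds the conduction of impulses. They arise from precursor cells that carry the receptor PDGFRA, divide in response to platelet-derived growth factor and persist through adult life. The transcription factors OLIG1 and OLIG2 act in both the precursors and the mature cells. As a cell matures it shuts off Pdgfra and makes large amounts of the proteins of the sheath, among them MBP, MOBP, MOG, MAG, CNP and MAL. Pdgfra is also carried by fibroblasts of the brain coverings and by mesenchymal cells of other organs.

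On GRCm38, the build called mm10, GENCODE M21 places Mog at chr17:37010743-37023398 on the minus strand, Mag at chr7:30899176-30914873 on the minus strand and Mal at chr2:127633226-127656695 on the minus strand. Mobp is at chr9:120149707-120181484, Cnp at chr11:100574904-100591729 and Pdgfra at chr5:75152292-75198215, all on the plus strand. Olig2 at chr16:91225457-91228677 and Olig1 at chr16:91269772-91271933 are neighbours on the plus strand. Exons of Cnp share 154 bases with Dnajc7 on the opposite strand, those of Olig1 share 157 bases with the long noncoding Gm15966 and those of Pdgfra share 456 bases with the antisense Gm42802. The setting for strand in the counting is not given in the sources used here, so reads from these stretches may belong to either gene.

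RefSeq promoter sequence was at hand for 7 of the 9 genes, and the 250 bases before the start of 4 of them are shown. Control 3 was the highest control brain for each of the 6 sheath genes and not for Olig2. The letters ACAAAG, the core that SOX proteins such as the oligodendrocyte factor SOX10 recognize, and the TATA box letters TATAAA are in capitals, on either strand. The first 3 sequences belong to sheath genes and the fourth to a transcription factor. They lie at chr9:120149492-120149741 (plus strand), chr11:100574689-100574938 (plus strand), chr7:30914923-30915172 (minus strand, the start farthest upstream) and chr16:91225300-91225549 (plus strand) of GRCm38.p6.
Mobp: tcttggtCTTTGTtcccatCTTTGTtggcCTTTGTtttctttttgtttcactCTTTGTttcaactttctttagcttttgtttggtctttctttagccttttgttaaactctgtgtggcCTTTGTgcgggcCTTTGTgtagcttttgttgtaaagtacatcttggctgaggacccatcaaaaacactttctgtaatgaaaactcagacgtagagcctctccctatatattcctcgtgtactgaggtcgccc
Cnp: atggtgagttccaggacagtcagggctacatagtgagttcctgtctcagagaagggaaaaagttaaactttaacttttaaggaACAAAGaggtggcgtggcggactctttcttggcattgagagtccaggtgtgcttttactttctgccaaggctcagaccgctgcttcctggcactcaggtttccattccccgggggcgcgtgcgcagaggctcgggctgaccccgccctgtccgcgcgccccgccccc
Mag: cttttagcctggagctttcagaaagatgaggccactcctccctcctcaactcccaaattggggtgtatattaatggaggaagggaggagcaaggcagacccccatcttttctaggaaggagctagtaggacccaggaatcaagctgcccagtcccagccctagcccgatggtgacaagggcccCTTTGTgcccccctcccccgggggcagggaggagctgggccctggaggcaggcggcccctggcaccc
Olig2: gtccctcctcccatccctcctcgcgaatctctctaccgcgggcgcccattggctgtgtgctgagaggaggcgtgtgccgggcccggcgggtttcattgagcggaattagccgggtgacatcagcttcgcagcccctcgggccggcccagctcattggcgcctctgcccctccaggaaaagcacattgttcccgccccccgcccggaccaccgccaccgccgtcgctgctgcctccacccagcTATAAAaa
The Mobp window held ACAAAG 6 times and the Cnp window and the Mag window shown held it 1 time each, whereas the windows of Olig2, Mal, Mog and Pdgfra held none. The sheath genes shown are thus those with ACAAAG in a window. Mal and Mog, for which control 3 was also the highest control brain, are not shown. A link between these letters and the order of the control brains was not tested. Mag has 3 starts in RefSeq, and the window of the start farthest downstream held ACAAAG 0 times. Olig2 held TATAAA 1 time. Among 32851 promoters of the same length, 16.5% held ACAAAG and 12.4% held TATAAA on either strand, and the motifs did not overlap in the windows shown. These matches describe letters and not sites of binding.

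Olig1 and Olig2, the transcription factor genes, were the 2 of the 9 genes whose groups did not overlap, with heat stress lower, as was the case for 12% of all genes tested in brain. Neither passed the threshold, and the same held for the other 7 genes. The level of Olig2 was 31.7, 35.9 and 33.5 CPM, that is counts scaled to the TMM-normalized size of the library, in the control mice 1, 2 and 3 and 25.5, 22.7 and 24.3 in the heat stress mice. Each heat stress brain was below each control brain, and the group means were 33.7 ± 2.10 and 24.1 ± 1.42 CPM (SD, n = 3 each). The level under heat stress was 0.717 times the control level, a log2 fold change of -0.48 ± 0.11 (SE), with an unadjusted p = 0.00193 and an adjusted p = 0.170 in edgeR's quasi-likelihood test. It did not reach the threshold of an adjusted p-value under 0.05 with a log2 fold change past 1, and it stood at place 111 of 14806 genes by p-value. It was the single gene of the 9 with an adjusted p-value under 0.05 in any of the 17 alternative settings, namely 0.0426 in DESeq2 on the same 6 libraries.

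Olig1, whose product supports the maturation of the cells and remyelination, was measured at 117, 135 and 133 CPM in control and at 115, 101 and 89.8 CPM in heat stress. Its highest heat stress brain was just below its lowest control brain. The log2 fold change of Olig1 was -0.33 ± 0.12 (SE) with an adjusted p = 0.205 and an unadjusted p = 0.0262 in edgeR's test, and it lay between -0.43 and -0.24 over the alternatives. In edgeR's test the unadjusted p-value of Olig1 was above 0.05 when control 2, control 3, heat stress 2 or heat stress 3 was left out, at 0.0659, 0.0709, 0.0692 and 0.107.

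Pdgfra, the receptor of the precursors, was at 62.7, 69.8 and 50.7 CPM in control and at 47.9, 53.1 and 48.8 CPM in heat stress. The third control brain was within the range of the heat stress brains, so the groups overlapped. The log2 fold change of Pdgfra was -0.29 ± 0.13 (SE), with an adjusted p = 0.263 and an unadjusted p = 0.0581 in edgeR's test. After a correction of each library for GC content and merged exon length it was -0.12, with an unadjusted p = 0.406 in edgeR's test. Without control 3 it was -0.41, with an unadjusted p = 0.0115 in the same test. Olig1, Olig2 and Pdgfra summed to 211, 240 and 217 CPM in control and to 188, 177 and 163 CPM in heat stress, without overlap. Olig1 was the largest part of this sum in each brain, so the sum is not a result apart from Olig1. In bulk tissue, fewer cells of this lineage and less RNA per cell cannot be told apart.

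**Figure D1:**
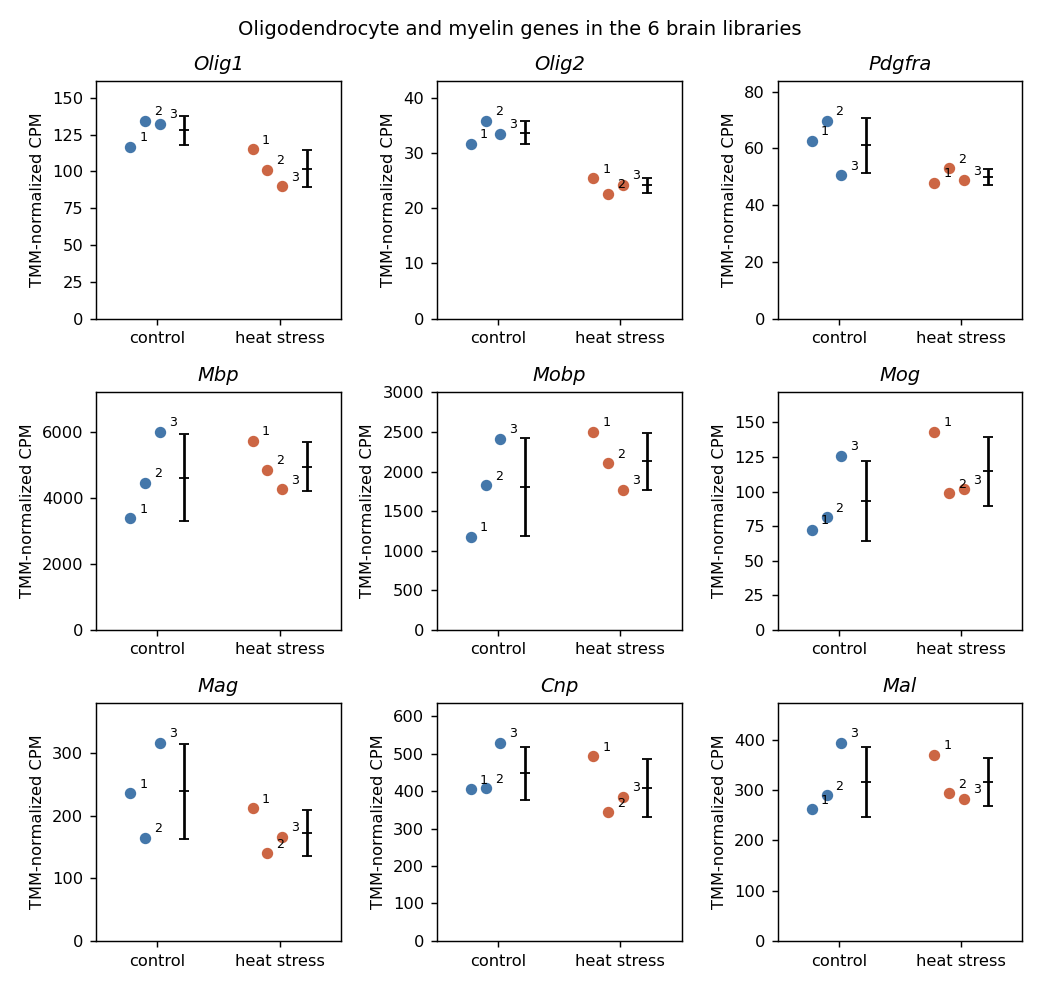
Levels of the 9 genes in the 6 brain libraries, in TMM-normalized CPM with every axis starting at 0. Points are mice, numbered by replicate, and the bar beside them is the mean ± SD of 3 mice. Olig1 and Olig2 were lower in each heat stress brain than in each control brain, and the other 7 genes overlapped between the groups.

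The 6 genes of the sheath did not separate the groups. Mbp, the basic protein that holds the cytoplasmic faces of compact myelin together, was measured at 3385, 4468 and 6016 CPM in control and at 5740.4, 4860.0 and 4269 CPM in heat stress. Its lowest and highest values were both in control brains, and its log2 fold change was 0.10 ± 0.23 (SE) with an adjusted p = 0.833. Mobp, another basic protein of compact myelin, followed the same order within each group, with 1174, 1830.3 and 2413 CPM in control and 2503, 2107 and 1772 CPM in heat stress. The log2 fold change of Mobp was 0.24 ± 0.26 (SE) with an adjusted p = 0.624, and it was 0.0036 without control 1 and 0.50 without control 3.

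Mog, which sits on the outermost surface of the sheath, was at 72.3, 81.3 and 126 CPM in control and at 143, 98.6 and 102 CPM in heat stress. Control 3 lay above heat stress 2 and 3, and the log2 fold change of 0.30 ± 0.22 (SE) had an adjusted p = 0.467. Without control 3 the log2 fold change of Mog was 0.57, with an unadjusted p = 0.0143 and an adjusted p = 0.325 in edgeR's test, and with the correction for GC content and length it was 0.099.

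Mag, the sialic acid binding adhesion protein on the side of the sheath that faces the axon, was at 236, 165 and 316 CPM in control and at 212, 140.0 and 166 CPM in heat stress. It was lower on average under heat stress, but control 2 was below 2 of the 3 heat stress brains. Its log2 fold change of -0.47 ± 0.24 (SE) had an adjusted p = 0.295 and an unadjusted p = 0.0776 in edgeR's test, and it was -0.21 without control 3 and -0.68, with an adjusted p = 0.0818, without control 2.

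Cnp, the cyclic nucleotide phosphodiesterase that keeps cytoplasmic channels in the sheath open, was at 405, 408 and 529 CPM in control and at 494, 344 and 385 CPM in heat stress. The ranges overlapped, and the log2 fold change was -0.13 ± 0.17 (SE) with an adjusted p = 0.688. Mal, a proteolipid that takes part in the sorting of membrane to the sheath, was at 262, 290.3 and 394 CPM in control and at 371, 294 and 283 CPM in heat stress. Its means of 316 ± 69.4 and 316 ± 47.8 CPM (SD, n = 3 each) gave a log2 fold change of 0.0019 ± 0.18 (SE) with an adjusted p = 0.996.

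None of the 9 genes passed the threshold, and neither did any of the 14806 genes tested in brain. DESeq2 on the same libraries gave an adjusted p-value under 0.05 for 540 of these genes, 29 of them with a log2 fold change past 1, and for 1 of the 9 genes, which was Olig2. In edgeR's test 2 of the 9 genes were lower and 0 were higher at an unadjusted p under 0.05, where 10% of all tested genes were lower and 10% were higher. Heat stress was higher without overlap in 0 of the 9 genes and in 12.9% of all genes. Without heat stress 2 or heat stress 3, 1 of the 9 genes was lower, which was Olig2, where 6.26% and 10.1% of all genes were. Without heat stress 1 Mag joined Olig1 and Olig2 to make 3, where 7.21% of all genes were lower. The median log2 fold change of the 9 genes was -0.13 against -0.0030 over all tested genes. This median was 0.0028 without control 3, -0.27 without heat stress 1 and -0.025 without heat stress 2. For a single value, an exact two-sided permutation test of 3 against 3 mice cannot give a p-value under 0.1.

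**Figure D2:**
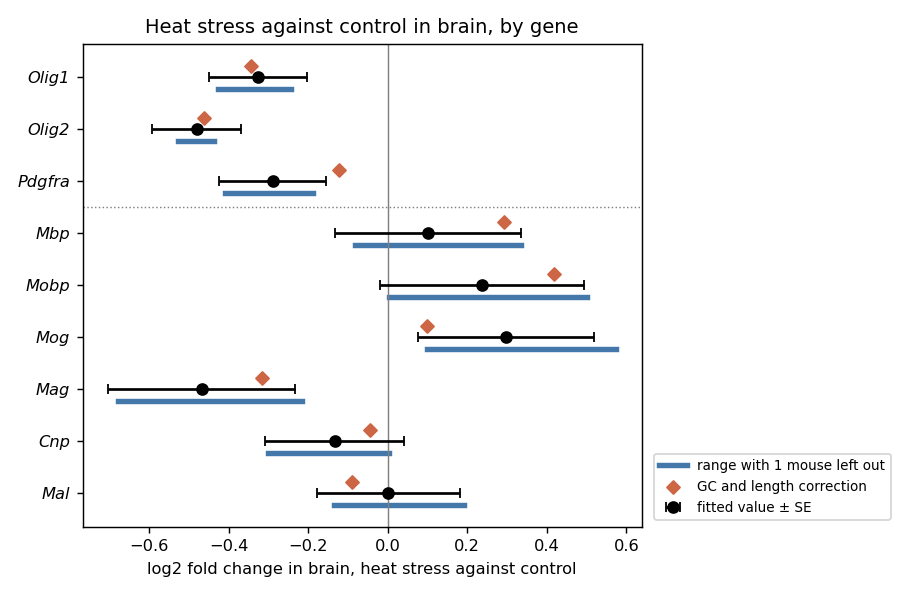
Log2 fold change of each gene in brain, heat stress against control. Black points are fitted values with bars of 1 SE, blue lines span the values with 1 mouse left out in turn, and diamonds are the values after correction for GC content and length, with the lineage genes above the dotted line. Olig2 stayed between -0.53 and -0.44 with 1 mouse left out, and the blue lines of Mbp, Cnp and Mal crossed 0.

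Much of the spread of the sheath genes was among mice of the same group. The 6 sheath genes together reached 5535, 7242 and 9795 CPM in the control mice 1, 2 and 3 and 9464, 7844 and 6977 CPM in the heat stress mice. The control brains alone thus spanned the whole range of the heat stress brains. Control 3 was the highest control brain in 6 of the 6 sheath genes, and control 1 was the lowest control brain in 7 of the 9 genes. Among the heat stress brains, heat stress 1 was the highest in 8 of the 9 genes, and Pdgfra was the exception. The 3 lineage genes did not share the order of the control brains, since control 2 was the highest control brain in Olig1, Olig2 and Pdgfra. Over the 6 brain libraries, the correlation of log2 CPM with the mean of the other 8 genes was 0.92 for Mal, 0.90 for Cnp and 0.74 for Mbp. It was 0.59 for Olig1, 0.56 for Mog, 0.55 for Mag and 0.54 for Mobp, but 0.27 for Olig2 and -0.38 for Pdgfra. These values describe 6 points that share their library and its depth. All 9 genes held 0.574 to 1.04% of the counts of a control brain and 0.716 to 0.963% of those of a heat stress brain. The neuron marker Slc17a6 had the order of the sheath sum in each group. It was at 37.2, 65.3 and 135 CPM in control and at 133, 64.2 and 31.4 CPM in heat stress. The sum of 12 neuron markers had the reverse order, at 12639, 10792 and 8929 CPM and at 9203, 9448 and 9905 CPM. A link between these orders was not tested.

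**Figure D3:**
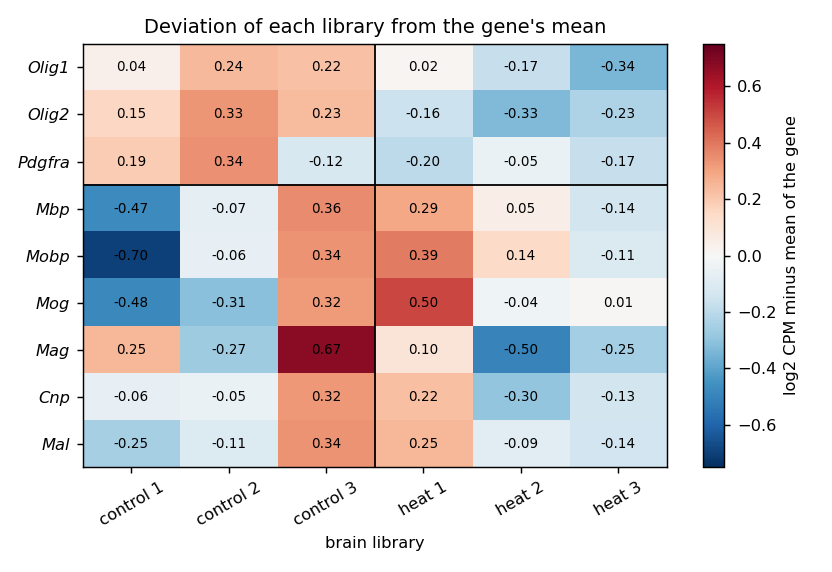
Deviation of log2 CPM from the mean of each gene over the 6 brain libraries. Red is above and blue is below the mean, the horizontal line parts the lineage genes from the sheath genes, and the vertical line parts control from heat stress. Mobp deviated by -0.70 in control 1 and by 0.34 in control 3, while Olig2 was above its mean in each control brain and below it in each heat stress brain.

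Among 10518 genes with a mean of at least 10 CPM, those most like the mean profile of the 9 genes over the 6 brain libraries were Rftn1, Gstm7, Ugt8a, Mtss1 and Abca8a, with Pearson correlations of 0.994, 0.988, 0.984, 0.983 and 0.981. Ugt8a, which encodes the enzyme that makes galactosylceramide, a main lipid of myelin, was at 59.6, 66.3 and 99.6 CPM in control and at 78.5, 54.1 and 52.9 CPM in heat stress. Control 3 was thus the highest and heat stress 1 the second highest brain for Ugt8a.

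Levels per length of exons ran from Mbp, the highest of the 9 genes, to Pdgfra. In control brain Mbp was at 546 ± 156 and Mobp at 264 ± 90.5 CPM per kilobase of merged exons (SD, n = 3), and their ranges did not overlap. Cnp at 123 ± 19.5 and Mal at 114 ± 25.0 CPM per kilobase came next and overlapped with each other. Olig1 at 59.2 ± 4.51, Mag at 58.7 ± 18.6 and Mog at 54.7 ± 16.9 CPM per kilobase could not be ordered beyond their spread. Olig2 at 13.3 ± 0.831 and Pdgfra at 6.09 ± 0.965 CPM per kilobase were the lowest, and Olig2 lay above Pdgfra in every control brain.

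Wider lists of the lineage were read in the same fit, without the 9 genes, and each count stands against the 10% of all tested genes that were lower and the 10% that were higher at an unadjusted p under 0.05. With 1 mouse left out these shares were 5.93 to 13.4% lower and 4.90 to 13.7% higher, and with the correction for GC content and length they were 6.50% and 6.82%. Of 12 genes of precursor cells, 3 were lower and 0 were higher in heat stress at an unadjusted p under 0.05, with a median log2 fold change of -0.18. The lower ones were Tnr, an extracellular glycoprotein, at -0.78 ± 0.18 (SE), the proteoglycan gene Cspg4, which encodes NG2, at -0.66 ± 0.18, and Ptprz1, a receptor phosphatase, at -0.38 ± 0.12, with adjusted p-values of 0.170, 0.170 and 0.173. Tnr was at 54.5, 43.5 and 38.0 CPM in control and at 26.8, 20.9 and 31.7 CPM in heat stress, and Cspg4 at 25.8, 17.9 and 17.8 CPM and at 11.6, 13.0 and 14.4 CPM. Neither gene overlapped between the groups.

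Of 13 genes of differentiating cells, 4 were lower and 0 were higher, against 10% of all genes in each direction, with a median log2 fold change of -0.18. Gpr17, a receptor of cells that are leaving the precursor state, had a log2 fold change of -0.62 ± 0.16 (SE), and Myrf, the transcription factor that switches on the genes of myelin, one of -0.58 ± 0.21. Itpr2 had -0.32 ± 0.13 and Sox10, which works with Myrf at those genes, had -0.44 ± 0.19, and the adjusted p-values of the 4 genes were between 0.170 and 0.238 in edgeR's test. Gpr17 was at 30.2, 31.9 and 25.8 CPM in control and at 16.1, 23.3 and 17.8 CPM in heat stress, without overlap, whereas Myrf and Sox10 overlapped. Tcf7l2, a factor of the newly formed cells, was at 17.9, 10.1 and 75.2 CPM in control and at 34.3, 14.8 and 11.1 CPM in heat stress, so its control 3 stood above the other libraries.

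Of 15 lineage transcription factors, 5 were lower and 2 were higher, against the same 10%, with a median of -0.21. Besides Myrf and Sox10, the lower ones were Sox8, Zfp536 and Chd7, at -0.25, -0.50 and -0.48. The higher ones were Hes5 at 0.68 ± 0.21 (SE) and Id4 at 0.46 ± 0.19, both of which hold back differentiation and are also made by astrocytes, with adjusted p-values of 0.172 and 0.220.

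Of 15 myelin protein genes, 1 was higher and 0 were lower, against 10% of all genes in each direction, with a median of 0.043. The higher one was Opalin, a glycoprotein of central myelin, at 0.44 ± 0.17 (SE) with an adjusted p = 0.206. The sign of the median of the myelin protein genes rested on the setting and on single mice, since it was -0.18 with the correction for GC content and length, with 12 of the 15 genes below 0, 0 higher and 1 lower. It was -0.11 without control 1, -0.093 without heat stress 1 and 0.23 without control 3. The number of higher myelin protein genes was 2 without control 3, and 0 without control 1, heat stress 1 or heat stress 2. DESeq2 on the 6 libraries gave 3 higher of 16, which is 18.75% against 8.98% of all genes. Of 22 enzymes and carriers of mature cells, 1 was higher and 3 were lower, which is 4.55% and 13.6% against 10% of all genes in each direction. These were Aspa, which cleaves N-acetylaspartate, at 0.68 ± 0.25, and Gsn, Trf and Dock10 at -0.48, -0.56 and -0.39, with adjusted p-values between 0.170 and 0.235. With the correction 0 of the 22 were higher and 3 were lower. Without heat stress 1, 0 were higher and 6 were lower, where 6.79% and 7.21% of all genes were, whereas without control 3, 3 were higher and 1 was lower, where 6.45% and 8.18% of all genes were, and without heat stress 2 or heat stress 3 the count of lower ones was 1. None of 21 genes of cholesterol and sphingolipid synthesis was past an unadjusted p of 0.05, and their median was -0.023. Of these lipid genes, 5 were lower without control 2, which is 23.8% against 13.4% of all tested genes, and 2 were lower with the correction.

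Of 13 genes of the node of Ranvier and its flanks, where the sheath meets the axon, 5 were lower and 0 were higher, against 10% of all genes in each direction, with a median log2 fold change of -0.30. Cntnap1 and Cntn2, adhesion proteins beside the node, had -0.47 and -0.54, Nfasc had -0.55, and the channel genes Scn8a and Kcna2 had -0.58 and -0.44. Of 18 genes of signals to the lineage, 7 were lower and 0 were higher, against the same 10%, with a median of -0.33. Igf1r, the receptor of insulin-like growth factor, was at 89.8, 66.0 and 74.1 CPM in control and at 46.1, 41.4 and 50.1 CPM in heat stress, with a log2 fold change of -0.74 ± 0.14 (SE) and an adjusted p = 0.170. Notch1, which restrains the maturation of precursors, had -0.57 ± 0.11 with the same adjusted p-value. Both were lower in each heat stress brain. Among genes that mark oligodendrocytes in age or disease, Serpina3n was lower at -0.41 ± 0.16 (SE) with an adjusted p = 0.218.

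Over the union of these lists, 26 of 128 genes were lower, which is 20.3% against 10% of all tested genes, and 5 were higher, which is 3.91%. The count of lower genes was 16 without control 3 and 15 without heat stress 2, at backgrounds of 8.18% and 6.26%. With the correction for GC content and length it was 14, which is 10.9% against a background of 6.50%, and 1 gene was then higher. Under that correction 1 precursor gene, 1 gene of differentiating cells, 0 lineage transcription factors, 1 node gene and 4 signal genes were lower. Without control 3 the medians of the genes of differentiating cells and of the lineage transcription factors were 0.10 and 0.11, with 1 lower transcription factor, and without heat stress 2 the node genes and the transcription factors had 1 lower gene each. The node genes had 2 lower genes without control 1 or control 3, the genes of differentiating cells had 2 without control 1, control 3, heat stress 2 or heat stress 3, and the signal genes had 4 without heat stress 1. The lists share control and heat stress mice with the 9 genes, and none of their genes passed the threshold in edgeR's test. DESeq2 on the same 6 libraries gave an adjusted p-value under 0.05 for 7 of 131 list genes, against 540 of all 14806 genes. The 7 were Tnr, Gpr17, Gsn, Cntnap1, Igf1r, Notch1 and Adgrg1, all of them lower and 0 of them with a log2 fold change past 1.

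**Figure D4:**
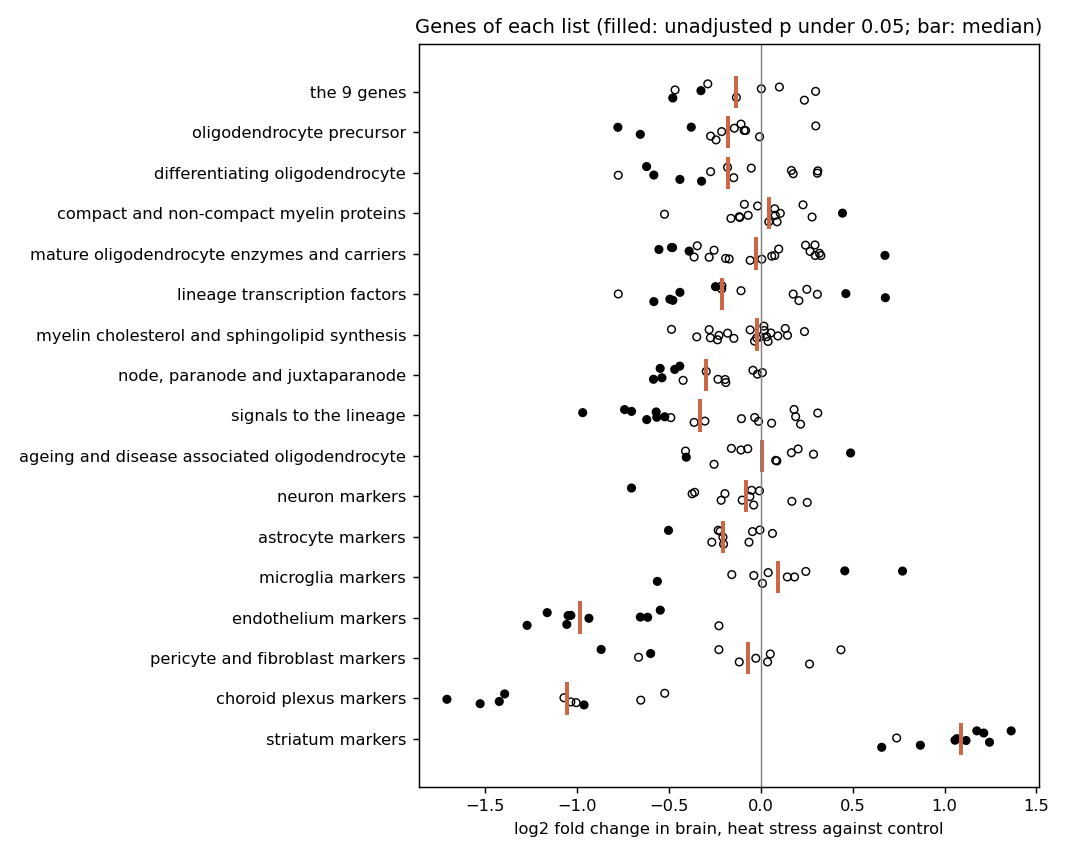
Log2 fold change in brain, heat stress against control, for the tested genes of each list without the 9 genes, which stand in the top line. Points are genes, filled where the unadjusted p-value was under 0.05, and the orange bar is the median. The medians of the oligodendrocyte lists lay between -0.33 and 0.043, those of endothelium and choroid plexus at -0.99 and -1.05, and that of striatum at 1.09.

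Markers of other cells and regions also differed between the same libraries, and their counts too stand against 10% of all tested genes in each direction. Of 10 endothelium markers, 9 were lower, and their sum was 265 to 458 CPM in control and 191 to 242 CPM in heat stress. Of 10 choroid plexus markers, 5 were lower, with sums of 1827 to 3522 CPM and of 534 to 1616 CPM. Of 10 striatum markers, 9 were higher, with sums of 597 to 1043 CPM and of 1001 to 2182 CPM, but the striatum count was 2 without control 1 and 6 without control 3, without heat stress 3 or with the replicate number as a block in the fit. The median log2 fold changes of the endothelium, choroid plexus and striatum markers were -0.99, -1.05 and 1.09, and they were -0.56 without control 1, -0.65 without control 3 and 0.72 without heat stress 3, respectively. DESeq2 on the 6 libraries gave an adjusted p-value under 0.05 for 6 endothelium, 3 choroid plexus and 4 striatum markers, and for 540 of all 14806 genes. Of these markers, 4, 2 and 4 had a log2 fold change past 1. It also gave 1 neuron, 2 microglia and 1 Schwann cell markers, of which 0, 0 and 1 had a log2 fold change past 1. Of the other lists, 1 of 12 neuron, 1 of 10 astrocyte and 2 of 10 pericyte and fibroblast markers were lower, and of 10 microglia markers 2 were higher and 1 was lower. These shares lay between 8.33% and 20%, and the counts rested on single mice, since 5 pericyte and fibroblast markers were lower without heat stress 2, where their median went from -0.073 to -0.66, and 1 without control 1 or heat stress 1. Without control 2, 5 microglia markers were higher, where 13.7% of all genes were, and without control 1, control 3 or heat stress 2 it was 1. Of the astrocyte markers 3 were lower without control 1 or control 3, and of the neuron markers 2 without control 3. Of 5 Schwann cell markers 1 was lower, and without heat stress 3 it was 2 of 6. Of 4 hepatocyte markers tested in brain, the 1 that was lower was Ttr, which is also in the choroid plexus list, and the other 3 had log2 fold changes between 0.23 and 1.11. Without control 1 or control 3, 0 hepatocyte markers were lower. No marker was at 0 in every brain library. The part of these differences in the values of Olig1, Olig2, Pdgfra and the precursor genes was not tested.

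The fold changes of all genes in brain also went with length, here the merged exons of all transcripts of a gene. The median log2 fold change was 0.24 in genes under 2 kb, 0.055 from 2 to 4 kb, -0.049 from 4 to 8 kb and -0.14 from 8 kb. Over 14562 genes the Spearman correlation of the log2 fold change was -0.335 with this length and -0.301 with GC content. Mog is in the shortest of these classes and Mbp and Pdgfra are in the longest. The longest single transcripts of Mbp and Pdgfra have 4797 and 6834 bases, less than their merged exons. The correction, which takes GC content and length together, moved Mbp from 0.10 to 0.29, Mobp from 0.24 to 0.42 and Mag from -0.47 to -0.32. Olig2 moved from -0.48 to -0.46 and Olig1 from -0.33 to -0.34.

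In liver, which has no oligodendrocytes, the genes were checked against their tissue. In liver control 2 and 3 and in heat stress 1, 2 and 3, Mog had 0, 0, 0, 1 and 0 counts, Mobp had 0, 1, 0, 4 and 0, and Olig2 had 0 in each. A count of 0 allows up to 3 counts of the total, and this covers counting error only. Liver control 1 stood apart, with 170 counts of Mbp, 85 of Mobp, 6 of Mog and 2 of Olig2. In that library these genes and Mag lay at 0.553, 0.708, 0.968, 0.894 and 0.818% of their mean level in control brain, and 12 neuron markers had a median of 0.773%. In the other 5 liver libraries the median of the neuron markers was 0 to 0.0777%. Among these, heat stress 2 was the highest, with 47 counts of Mbp and 52 of the neuron marker Camk2a. Mbp, Mobp, Mog and Olig2 summed to 263 counts in liver control 1 and to 52 in liver heat stress 2. The sum was 7 to 15 in the remaining liver libraries. Pdgfra was at 57 to 75 counts in every liver library, Olig1 at 108 to 230 and Cnp at 113 to 349. Mag, at 3 to 13 counts, and Mal, at 7 to 27, were low in each of them. Liver control 1 was the highest liver library in Olig1, Cnp, Mag and Mal as well.

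**Figure D5:**
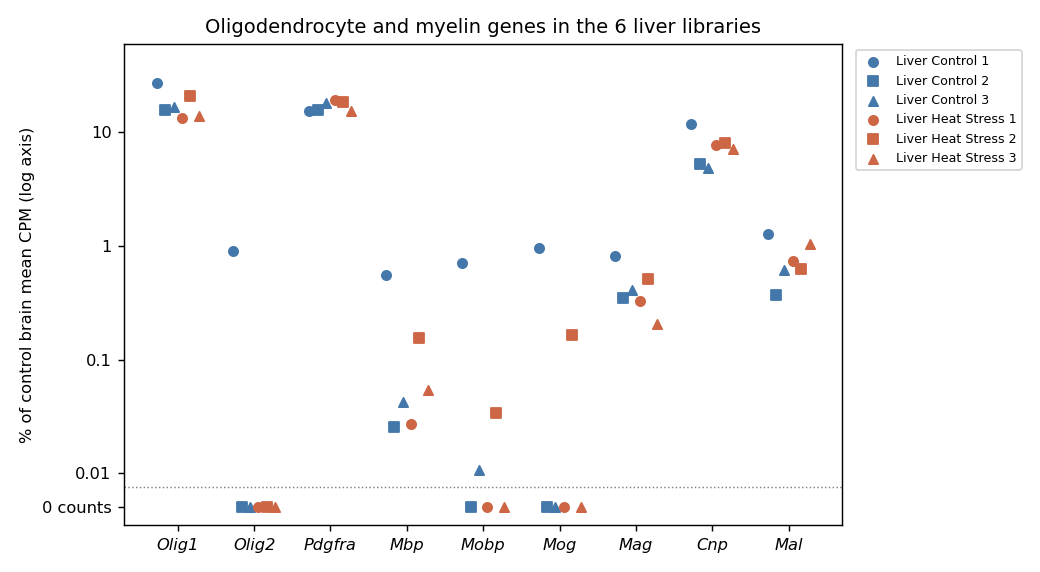
Levels of the 9 genes in the 6 liver libraries as a percentage of the mean of the control brains, on a log axis with libraries at 0 counts placed on the bottom line. Points are libraries, blue for control and orange for heat stress. Olig1, Pdgfra and Cnp lay highest, and liver control 1 lay above the other liver libraries in every gene but Pdgfra.

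Only 5 of the 9 genes passed the filter on low counts in liver, namely Mbp, Cnp, Mal, Olig1 and Pdgfra. In edgeR's test 0 of the 5 were lower and 0 higher at an unadjusted p under 0.05, against 2.87% and 2.97% of all genes tested in liver, and the adjusted p-values were 0.947 or more. Mbp had 170, 7 and 10 counts in control and 8, 47 and 15 in heat stress, and its log2 fold change of -1.33 ± 1.16 (SE) became 1.17 without control 1. Pdgfra had 63, 57 and 57 counts in control and 75, 74 and 57 in heat stress, with a log2 fold change of 0.12 ± 0.23 (SE). The groups overlapped in each of the 9 genes in liver, where 5.73% of the tested genes were lower and 5.38% higher without overlap.

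In the 12-library fit all 9 genes were higher in control brain than in control liver at an adjusted p under 0.05 and a log2 fold change over 1, as were 37.2% of the 15824 genes tested. Mog, Mag, Mobp and Olig2 did not pass the filter in liver and entered this fit through brain, where they are high. Their tissue calls, and their differences of heat effects below, are therefore not read as results. Mbp, Cnp, Mal, Olig1 and Pdgfra passed the filter in both tissues. The log2 difference was 8.88 ± 1.07 (SE) for Mbp and 7.004 ± 0.353 for Mal. The control liver mean of Mbp was set by liver control 1, at 17.5 CPM against 0.802 and 1.33 CPM in liver control 2 and 3. Without that library the difference was 11.54 for Mbp and 7.67 for Mal. With all libraries it was 3.77 ± 0.31 for Cnp, 2.61 ± 0.17 for Pdgfra and 2.33 ± 0.23 for Olig1. These are the 3 genes with counts of 57 or more in every liver library. Without liver control 1 their differences were 4.30, 2.57 and 2.63. The effect of heat stress in liver minus that in brain was tested in the same fit and was past an adjusted p of 0.05 in 0 of the 9 genes, against 0.00632% of all genes. DESeq2 also gave 0 of the 9. At an unadjusted p under 0.05 it was 1 of the 9 genes against 9.64% of all, and the gene was Mobp, at -4.57 ± 1.89 (SE). Outside liver control 1 the liver counts of Mobp were 0, 1 or 4, so its call is not read as a heat effect. Without liver control 1 the difference of Mobp was 0.88. For Pdgfra, with counts in each library, the difference was 0.41 ± 0.23 with an adjusted p = 0.570, and for Olig1 it was 0.032 ± 0.32 with an adjusted p = 1.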

How the data were processed

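Total RNA of brain and liver of 12 libraries was turned into stranded messenger RNA libraries after oligo-dT selection. The authors deposited raw counts of reads for 25239 gene symbols, 1 column per library, without normalization. The submitters' processing notes name FastQC 0.11.9, Trimmomatic 0.39, HISAT2 2.2.1, featureCounts of Subread 2.0.1, DESeq2 1.22.2 and mm10, while another paragraph of the methods names Tophat2 and HTSeq. Not given in the sources used here are the annotation release, the strand setting and how multi-mapped reads were treated. Further deposited tables hold the authors' own comparisons, that is fold changes and p-values, and were not used. The columns of 1 control and 2 heat stress livers have the ending 2nd in their names, without explanation.

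Heat stress was compared with control in R 4.3.3 with edgeR 4.0.16 (quasi-likelihood test, robust, TMM, filterByExpr at count 10 and total 15, Benjamini-Hochberg over all tested genes), within brain (14806 genes) and within liver (12296 genes). A fit of all 12 libraries in 4 groups (15824 genes) gave the difference between tissues. Normalized values are TMM-normalized CPM, and SE is the size of the log2 fold change divided by the root of the F statistic. Genes named from the lists are up to 4 per list with the smallest p-value in brain, and the 5 genes most like the mean profile, on log2 CPM with a prior count of 2. Tcf7l2, Sox8, Zfp536, Kcna2 and Slc17a6 were named after their values were seen. The 9 genes and the lists were chosen with earlier results of these data known. Alternatives were DESeq2 1.42.0, other normalizations, no filter or a minimum count of 50, all 12 libraries and the replicate number as a block. Others were an offset for GC content and length, and each mouse left out. The offset used splines with 5 degrees of freedom each. They took the merged exon length and the GC content of the longest transcript from GENCODE M21. On simulated counts, the brain test recovered 58, 161 and 200 of 200 genes changed 1.5-, 2- and 4-fold. False calls were 0, 11 and 10 among 14822, 14821 and 14808 genes. Calls here needed an adjusted p under 0.05 only, with no limit on the fold change. The changed genes were drawn above a minimum mean count, and all others were simulated without a group difference. The numbers are therefore not the power of the full threshold in the brain data. Nothing in the labels names shared litters or processing batches. The p-values measure the spread between libraries. With 1 library per mouse and tissue, this holds differences between mice and between dissections and preparations alike. The paper gives 3 animals per group and says that both tissues were harvested, so brain and liver libraries of a group likely share mice. Which brain library belongs with which liver library is not stated, and the 12-library fit treats all libraries as independent. Some genes of the lists are not reported here.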

Additional observations from a re-analysis of the deposited data

How the results depend on the processing

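In brain, Olig1, Olig2, Pdgfra, Mag, Mog and Mobp kept their direction under each of the 17 alternatives, and Olig2 was the only one of the 9 genes with an adjusted p-value under 0.05 in any of them. DESeq2 on the 6 brain libraries gave 1 of the 9 genes, and 540 of all tested genes, at an adjusted p under 0.05, where edgeR gave 0 of both, and the cause was not tested. The number of the 9 genes lower at an unadjusted p under 0.05 was 1 with all 12 libraries in edgeR and 1 with all 12 in DESeq2. It was 3 with DESeq2 on the 6 libraries and with the replicate block, where Mag joined Olig1 and Olig2, and 3 with library totals alone and with no filter, where Pdgfra did. Of all tested genes, 9.35% were lower with DESeq2 on the 6 libraries, 9.42% with the replicate block and 8.89% with library totals alone. Shares for the fits of all 12 libraries and for no filter are not given here. With 1 mouse left out the number of the 9 genes lower was between 1 and 3, where 5.93 to 13.4% of all genes were. The number higher was between 0 and 1, where 4.90 to 13.7% of all genes were. Over the wider lists, 2 of the lipid synthesis genes were lower with the replicate block, and 14 genes were lower with the correction for GC content and length and 15 to 32 with 1 mouse left out. Mal, whose difference was near 0, took the other sign at -0.00026 with DESeq2, -0.090 with the correction, -0.011 with no filter, -0.076 with the correction and the replicate block, -0.0078 with all 12 libraries and -0.017 with DESeq2 on all 12, and Mtss1 was 0.10 with the correction. With 1 mouse left out, the log2 fold changes in brain were between -0.081 and 0.33 for Mbp, -0.30 and 0.0028 for Cnp, and -0.13 and 0.19 for Mal, -0.26 and 0.022 for Pmp22, -0.30 and 0.041 for Rftn1, -0.35 and 0.061 for Gstm7, and -0.29 and 0.0016 for Mtss1. In liver they were between -2.26 and 1.17 for Mbp, -0.083 and 0.54 for Cnp, and -0.18 and 0.66 for Mal. The difference of liver minus brain was between -2.49 and 1.15 for Mbp, -4.97 and 2.00 for Mog, -0.51 and 0.38 for Mag, -8.62 and 0.88 for Mobp, -0.013 and 0.73 for Cnp, -0.28 and 0.72 for Mal, -0.21 and 0.33 for Olig1, and -3.27 and 0.49 for Olig2. Mog, Mag, Mobp and Olig2 did not pass the filter in liver and have too few liver counts for a fold change of heat stress there. Their differences of liver minus brain are therefore not read as heat effects.

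Mice with the same replicate number did not deviate together in brain, where the correlations of their deviations were -0.289, 0.190 and -0.20, so the numbers were not read as pairs. With the replicate block the log2 fold change of Olig2 was -0.48 with an adjusted p = 0.146, 0 of the 9 genes passed the threshold, and 26 genes of the wider lists were lower, and with the block and the correction for GC content and length Pdgfra was at -0.11.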
